A study of Mus musculus with 12 samples.

Results

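The G2 and mitosis genes described here are 35 genes whose products carry a cell from late G2 through chromosome segregation and division. They were chosen as a list of named genes by what their products do, with earlier results of these arrays known. The group holds the mitotic cyclins with Cdk1, the Aurora and Polo kinases, the chromosomal passenger complex, the spindle checkpoint, the kinetochore, the spindle motors and the proliferation marker Mki67. Each gene was read from 1 probe set, the brightest on average over the 12 arrays among those annotated to a single symbol. By this rule 34 of the 35 were measured, and all 34 passed the filter on low values, out of 12912 genes tested. Ccnb1, which encodes cyclin B1, had no probe set with a single symbol and has no value here.

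Cyclins of the A and B types bind Cdk1, and the active kinase drives entry into mitosis. Plk1 and Aurora A build the spindle poles, Aurora B in the passenger complex corrects faulty attachments of chromosomes, and the checkpoint kinases hold anaphase back until every kinetochore is attached. Many of these genes are transcribed in cycling cells and repressed in resting ones, through promoter sites bound by NF-Y and by the DREAM and MuvB complexes, so their transcripts are widely read as a measure of how many cells are dividing. INV16 is the fusion CBFB-MYH11 of acute myeloid leukaemia, in which the core-binding factor beta subunit is joined to the tail of smooth muscle myosin.

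The cells were primitive mouse bone marrow progenitors, bearing Sca-1 and c-Kit and lacking Flt3 and lineage markers. After sorting they were cultured for 24 h with 10% serum, 50 ng/ml stem cell factor and 5 ng/ml interleukin 6, exposed to retrovirus for 4 h and cultured for a further 20 h, and the GFP-positive cells were then sorted again for RNA. There were 4 arrays of cells given the INV16 virus (replicates 1 to 4), 3 arrays of cells given an INV16 mutant that lacks the assembly competent domain and is described as not leukaemogenic (ACD mutant, replicates 1 to 3), and 5 arrays of cells given the vector without insert (MIB control, replicates 3 to 7). All 3 groups had the same marrow source, culture, virus exposure and GFP sort, so that what the control cells carry, transduction included, is shared by all. Replicates came from separate sorts and transductions, and the labels do not say which animals, or how many, supplied each one. Values are the deposited log2 values of Affymetrix probe sets, whose medians differed between arrays by at most 0.17. Expression in these arrays is the average over a sorted population, so fewer dividing cells and less RNA per dividing cell cannot be told apart.

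INV16 replicate 4 stood apart and is described on its own. Its 9 measured primitive progenitor markers summed to 6022 on the linear scale, against 15105 to 22362 in INV16 replicates 1 to 3, 16210 to 19246 in ACD mutant cells and 15180 to 20863 in MIB control cells. Its 13 mast cell, basophil and eosinophil markers, of which 9 were above the filter, summed to 66900, against 2762 to 3343, 5638 to 6801 and 2380 to 5501 in the same groups. Of the 9 progenitor markers, 7 were lower than INV16 replicates 1 to 3 by at least 1 log2 unit, against 20.8% of all genes. The median difference of these 9 was -4.06. Gata2 was higher by as much, against 8.69% of all genes, at 11.74 against 9.67 to 11.26 on the other 11 arrays. Kit, at 10.99, lay within their 10.26 to 11.43. The array also had the largest gap between the 3' and 5' probe sets of Gapdh, 3.64 log2 units against 1.10 to 3.17 on the other 11. The hybridisation spike-ins split the arrays into 2 sets that the labels do not name: MIB control replicates 3 to 5 with INV16 replicates 1 to 3 (set A), and MIB control replicates 6 and 7 with INV16 replicate 4 and all ACD mutant replicates (set B). On the other 11 arrays the mast cell genes Fcer1a and Cma1 lay between 4.27 and 5.74, around the filter of 5.10, while Cpa3 (9.31 to 11.38), Hdc (8.32 to 10.62), Ms4a2 (7.76 to 10.61) and Mcpt8 (9.39 to 10.24) lay well above it. Of these 6 only Mcpt8, a basophil protease, was lower in INV16 replicate 4, at 5.35.

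Promoters are shown first because the shared control of these genes is written in short sites. Of the 35 genes, 29 had an entry among the RefSeq promoters of build GRCm38.p6, which run from 250 bases before to 50 bases after the gene's start. No entry was at hand for Incenp, Ccna2, Aurkb, Kif20a, Tpx2 or Cdc25c. Searched on both strands were the cell cycle genes homology region, taken as TTTGAA or TTCGAA, and the NF-Y box CCAAT. A match to one can share at most 1 base with a match to the other. Some of the promoters are printed below, from 150 bases before to 30 bases after the start, 5' to 3' on the gene's strand, with matches in capitals (ATTGG is CCAAT read on the other strand). Aurka was the member called lower in ACD mutant cells, Bub1 had the largest difference and Cks2 the smallest in INV16 replicate 4, and Cdk1 and Ccnb2 encode a mitotic kinase and a cyclin that activates it.

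Aurka, chr2:172370541-172370720, minus strand: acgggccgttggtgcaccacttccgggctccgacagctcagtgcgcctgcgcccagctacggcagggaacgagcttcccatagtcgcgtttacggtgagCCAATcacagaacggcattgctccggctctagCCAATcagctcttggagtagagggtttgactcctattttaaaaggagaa
Bub1, chr2:127831830-127832009, minus strand: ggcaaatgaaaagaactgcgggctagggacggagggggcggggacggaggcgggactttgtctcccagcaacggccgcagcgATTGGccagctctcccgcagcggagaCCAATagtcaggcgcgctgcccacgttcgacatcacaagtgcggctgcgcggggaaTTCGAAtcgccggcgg
Cdk1, chr10:69352883-69353062, minus strand: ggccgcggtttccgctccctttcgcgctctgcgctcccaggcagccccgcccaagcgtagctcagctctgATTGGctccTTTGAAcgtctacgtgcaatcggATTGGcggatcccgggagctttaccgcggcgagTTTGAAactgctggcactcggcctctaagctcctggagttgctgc
Ccnb2, chr9:70421525-70421704, minus strand: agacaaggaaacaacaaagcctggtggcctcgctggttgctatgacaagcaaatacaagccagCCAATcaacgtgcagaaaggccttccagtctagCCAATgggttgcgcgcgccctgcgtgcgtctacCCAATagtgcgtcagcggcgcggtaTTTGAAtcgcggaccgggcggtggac
Cks2, chr13:51645082-51645261, plus strand: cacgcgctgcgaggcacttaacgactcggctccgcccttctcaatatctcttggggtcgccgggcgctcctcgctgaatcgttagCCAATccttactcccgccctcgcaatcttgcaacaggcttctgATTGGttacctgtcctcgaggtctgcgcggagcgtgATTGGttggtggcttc

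The homology region and the NF-Y box are marked alike. In these stretches Cdk1 has 2 homology regions and 2 NF-Y boxes, Ccnb2 has 3 NF-Y boxes ahead of a homology region just after the start, and Bub1 has the second form, TTCGAA. Cks2 has only NF-Y boxes. Aurka has 2 NF-Y boxes here, and its match to TTTGAA starts 33 bases into the gene, past the end of the printed stretch. Over the whole windows, a homology region was found in 22 of the 29 members (75.9%) and in 19.4% of all 27025 promoters. In the last 100 bases of the window it was found in 20 members (69.0%), against 5.29% of all promoters. At least 1 NF-Y box was found in 23 members (79.3%), against 37.9% of all promoters, and 2 or more in 17 members (58.6%), against 12.2%. Both motifs were present in 20 members (69.0%), against 7.7% of all promoters. Neither was found in Birc5, Mad2l1, Nuf2 or Nusap1, which says only that these letters are not in these windows.

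**Figure D1:**
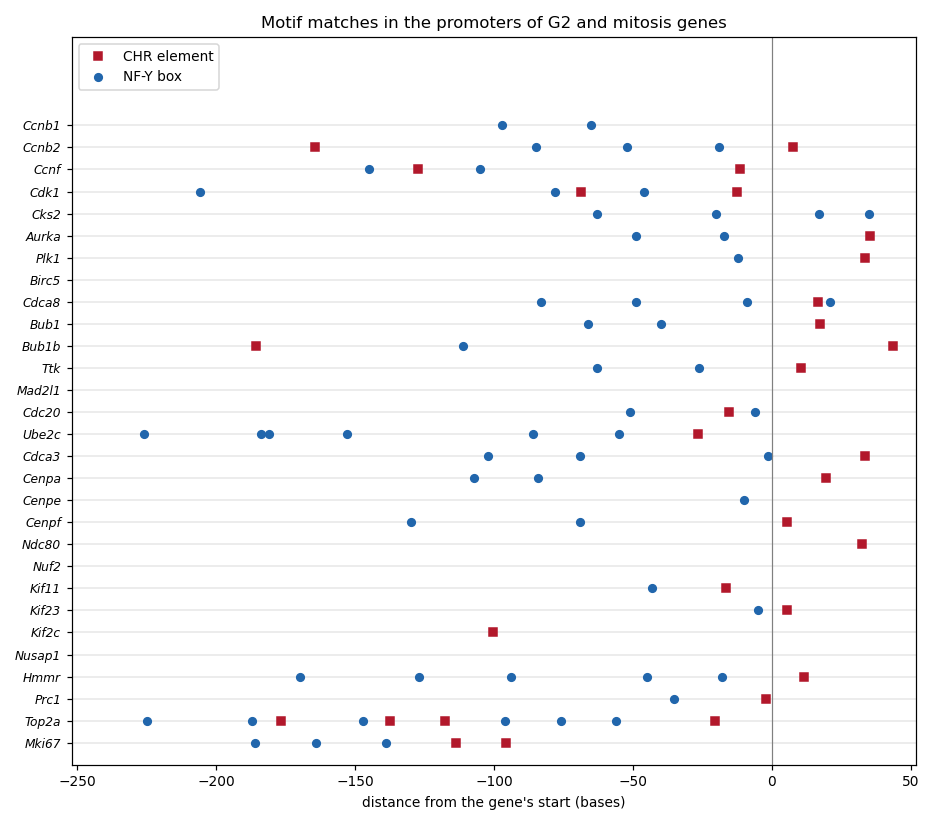
Matches to the cell cycle genes homology region (red squares) and the NF-Y box (blue circles) in the 29 member promoters at hand, by distance in bases from the gene's start (vertical line). Most red squares lie close to the start, in the last 100 bases of the window in 20 of 29 members, with blue circles upstream of many of them.

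The plot of motif matches shows the usual order of these sites, boxes for NF-Y ahead of a homology region near the start, in Bub1, Ttk, Cenpa, Cenpf and Prc1 among others. Kif2c and Ndc80 have a homology region and no NF-Y box in the window, and Ccnb1 and Cenpe have NF-Y boxes alone.

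Across INV16 replicates 1 to 3, ACD mutant and MIB control cells, the members were all above the filter and differed little between arrays. For each array, the median deviation of the 34 members from their means in MIB control cells was taken. It lay between -0.10 and -0.05 in INV16 replicates 1 to 3, between -0.21 and -0.16 in ACD mutant replicates, and between -0.08 and 0.07 in MIB control replicates. The ACD mutant arrays were thus the lowest of these 11, and the INV16 and control ranges overlapped. The median SD within groups was 0.139 for the members and 0.179 for all genes tested. The 3 comparisons below use limma over these 11 arrays with Benjamini-Hochberg adjustment over all 12912 genes, and a gene is called at an adjusted p under 0.05.

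**Figure D2:**
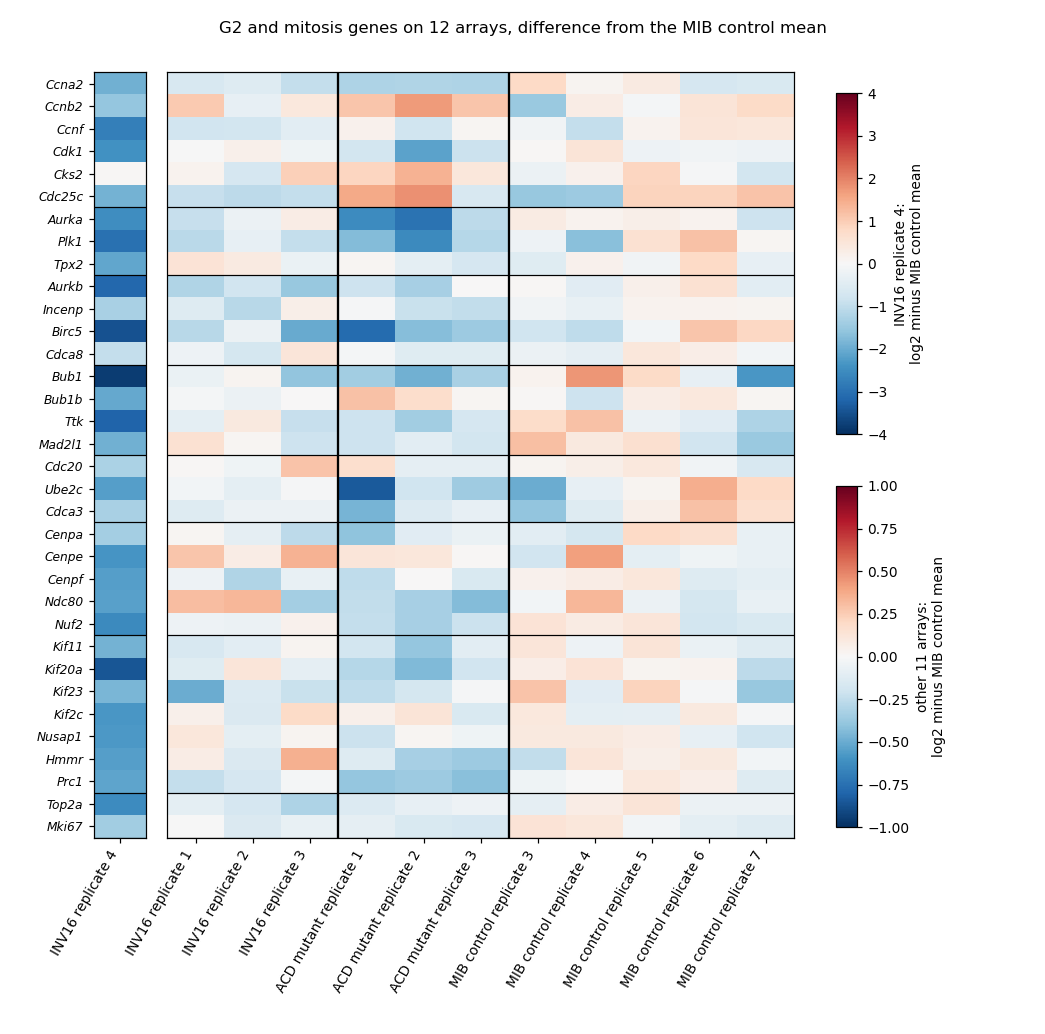
Log2 deviation of each of the 34 measured members (rows, grouped by role) from its mean in MIB control cells, for INV16 replicate 4 (its own colour scale, 4 log2 units either way) and for the other 11 arrays (1 log2 unit either way). INV16 replicate 4 is blue in nearly every row, with a median of -2.18, while the ACD mutant columns are faintly blue, with medians from -0.21 to -0.16.

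The heat map puts these sizes side by side: the columns of ACD mutant cells differ from control far less than the column of INV16 replicate 4 does. Within the ACD mutant columns the cyclin rows are mixed, with Ccnb2 and Cks2 on the high side and Ccna2 and Cdk1 on the low side.

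INV16 against MIB control asks whether the fusion changes these genes within a day of transduction. None of the 34 members was called in either direction, where 1.7% of all genes tested were called (0.627% higher and 1.07% lower). The members' median log2 difference was -0.07, and that of all genes tested was -0.03. Differences lay below 0 in 24 of 34 members, against 56.3% of all genes. Of the 34 other probe sets past the filter, 9 were of opposite sign to the set used for their gene. At an unadjusted p under 0.05, 1 member was counted, Aurkb, against 15.8% of all genes (5.65% higher and 10.1% lower). The 95% confidence intervals of all 34 lay between -0.64 and 0.52, and 33 of them held 0. A change by 1 log2 unit was thus outside the interval of every measured member on the probe set used. This does not cover other probe sets, such as a Cenpe set described below with a difference of 0.93.

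Aurkb encodes the kinase of the chromosomal passenger complex. Its values were 10.29, 10.40 and 10.21 in INV16 replicates 1 to 3 and 10.60, 10.48, 10.64, 10.74 and 10.49 in MIB control replicates 3 to 7. All 3 INV16 values lay below all 5 control values. The difference was -0.29 ± 0.11 (SE), with an adjusted p of 0.209 by limma. Its other probe set past the filter gave 9.76, 9.81 and 9.61 in INV16 cells and 9.92 to 10.13 in control cells, again without overlap. Top2a, the topoisomerase that untangles sister chromatids, had 12.31, 12.24 and 12.10 in INV16 cells and 12.33, 12.49, 12.54, 12.36 and 12.35 in control cells. Its groups did not overlap either, though the nearest values were close, and the difference was -0.19 ± 0.09 (SE; adjusted p = 0.339 by limma). On its other probe set past the filter, 1442454_at, the groups overlapped, at 8.16 to 8.62 in INV16 cells and 8.33 to 8.92 in control cells. On the sets used, Aurkb and Top2a were the only members whose INV16 values lay wholly below control. That is 2 of 34, against 5.99% of all genes, and no member lay wholly above, against 3.28%.

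The other members with the smallest p in this comparison overlapped. Kif23, a motor of the central spindle, had 9.41, 9.77 and 9.69 in INV16 cells and 10.19, 9.79, 10.13, 9.89 and 9.53 in control cells, a difference of -0.28 ± 0.15 (SE; adjusted p = 0.381 by limma). Birc5, which encodes survivin of the passenger complex, had 10.75, 10.96 and 10.52 in INV16 cells and 10.82, 10.77, 10.997, 11.30 and 11.23 in control cells, a difference of -0.28 ± 0.15 (SE; adjusted p = 0.404). In control cells Birc5 was higher in the 2 arrays of spike-in set B, and against the 3 control arrays of set A alone the INV16 difference was -0.12. Ccna2, cyclin A2, had 11.60, 11.63 and 11.53 in INV16 cells and 11.96, 11.79, 11.85, 11.60 and 11.62 in control cells, a difference of -0.18 ± 0.10 (SE; adjusted p = 0.439). Cenpe, the kinetochore motor that carries chromosomes to the spindle equator, was the exception in direction. It had 10.13, 9.93 and 10.21 in INV16 cells and 9.67, 10.27, 9.76, 9.81 and 9.78 in control cells, a difference of 0.24 ± 0.13 (SE; adjusted p = 0.419).

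Cenpe has another probe set on the array, 1439040_at, and there the difference was larger. It read 9.73, 9.76 and 9.86 in INV16 cells and 9.41, 8.71, 8.67, 8.78 and 8.67 in MIB control cells. All INV16 values lay above all control values, among which replicate 3 was the highest. In a fit with each of 22683 probe sets as its own row, an alternative added after the data were seen, the difference was 0.93 ± 0.16 (SE), with an adjusted p of 0.0151 by limma, where 1.39% of rows were called. ACD mutant cells had 9.63, 9.62 and 9.37 on this probe set, of which the lowest lay just under control replicate 3, and their difference from control was 0.69 (adjusted p = 0.0505 by limma in that fit). The Cenpe probe sets thus differ in what they call, and only the brighter 1435005_at stands for the gene in the counts over 34 members.

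By role, the 4 passenger complex genes and the 4 checkpoint genes all had differences below 0 in INV16 cells, with medians of -0.20 and -0.05. The 7 motors and microtubule binders had a median of -0.03, the 5 kinetochore genes -0.02, and the 6 cyclin-Cdk1 genes -0.08. Cdk1 itself had 11.68, 11.73 and 11.64 in INV16 cells and 11.63 to 11.81 in control cells, a difference of 0.00. Plk1 differed by -0.20 and Aurka by -0.07, and neither was called.

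ACD mutant against MIB control asks the same of the mutant protein. Here 1 of 34 members was called, Aurka, lower, where 1.7% of all genes tested were called (0.984% higher and 0.713% lower). The members' median log2 difference was -0.17, and that of all genes was 0.01. Differences lay below 0 in 28 of 34 members, against 48.6% of all genes, and above 0 in 6, against 51.4%. Of the 34 other probe sets past the filter 21 lay below 0, and 9 were of opposite sign to the set used for their gene. These other sets ran from -0.93 for Cenpa 1444416_at to 0.69 for Cenpe 1439040_at. At an unadjusted p under 0.05, 9 members were lower, against 8.86% of all genes, and 1 was higher, against 10.7%. ACD mutant values lay wholly below control in 7 members, against 5.84% of all genes, and wholly above in 1, Ccnb2, against 6.92%. The 95% intervals of the 34 lay between -0.86 and 0.63, and 24 of them held 0.

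Aurka encodes Aurora A, the kinase of the centrosome and spindle poles. Its values were 9.68, 9.58 and 10.05 in ACD mutant replicates 1 to 3 and 10.39, 10.35, 10.37, 10.35 and 10.11 in MIB control replicates 3 to 7. All 3 mutant values lay below all 5 control values, with mutant replicate 3 closest to control. Aurka fell by 0.54 on the log2 scale (SE 0.12), a 1.46-fold lower level, with an adjusted p of 0.0486 by limma. This lies at the threshold. In the fit with each of the 22683 probe sets as a row, Aurka had an adjusted p of 0.0507 and was not called. Over genes, the call was lost when MIB control replicate 3, 4, 5 or 6, INV16 replicate 1 or 2, or ACD mutant replicate 1 or 2 was left out, with adjusted p from 0.0632 to 0.237. Against the 2 control arrays of spike-in set B, which holds all ACD mutant arrays, the difference was -0.46 (adjusted p = 0.172). The Gapdh 3' minus 5' gap was 3.17, 1.98 and 1.63 in ACD mutant replicates 1 to 3, against 1.34 to 1.76 in control cells, and with it as a covariate the Aurka difference was -0.43 (adjusted p = 0.531).

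Next by p came Prc1, the bundler of midzone microtubules, with 10.57, 10.60 and 10.54 in ACD mutant cells and 10.92, 10.95, 11.07, 11.03 and 10.83 in control cells. The groups did not overlap, and the difference was -0.39 ± 0.09 (SE; adjusted p = 0.0554 by limma). Its other probe set had 9.77, 9.53 and 9.68 in mutant cells and 9.86 to 10.19 in control cells, also apart. Birc5 had 10.26, 10.60 and 10.66 in mutant cells and the control values given above, again with no overlap, a difference of -0.52 ± 0.15 (SE; adjusted p = 0.0904). Against the set B controls alone its difference was -0.76. Plk1, the Polo kinase of mitotic entry, had 9.34, 9.14 and 9.49 in mutant cells and 9.72, 9.35, 9.92, 10.07 and 9.79 in control cells, where control replicate 4 fell among the mutant values. The difference was -0.45 ± 0.15 (SE; adjusted p = 0.113).

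Cdk1, the kinase that drives mitosis, had 11.50, 11.15 and 11.47 in ACD mutant cells and 11.69, 11.81, 11.63, 11.65 and 11.64 in MIB control cells. All mutant values lay below control, replicate 2 the furthest, and the difference was -0.31 ± 0.10 (SE; adjusted p = 0.115 by limma). Ccna2 had 11.45, 11.47 and 11.45 in mutant cells, under every control value, and a difference of -0.31 ± 0.10 (SE; adjusted p = 0.122). Against the set B controls alone it was -0.15. Nuf2 and Ndc80, partners in the complex that binds kinetochores to microtubules, were the other members with no overlap, with differences of -0.26 and -0.34 (adjusted p = 0.181 and 0.264). Kif20a and Ube2c, a motor of cytokinesis and the ubiquitin-conjugating enzyme of the anaphase-promoting complex, had differences of -0.30 and -0.47 with overlapping groups.

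Against this drift, Ccnb2, cyclin B2, had 11.52, 11.68 and 11.53 in ACD mutant cells and 10.88, 11.33, 11.23, 11.38 and 11.44 in MIB control cells. The groups did not overlap, and the difference was 0.33 ± 0.13 (SE; adjusted p = 0.192 by limma). Against the set B controls, which hold the 2 highest control values, it was 0.17. The other differences above 0.1 were those of Cks2, a small Cdk1-binding subunit, at 0.22, of Cdc25c, a phosphatase that activates Cdk1, at 0.22, and of Bub1b, a checkpoint kinase, at 0.16, and none was called. On their other sets past the filter Cdc25c gave -0.14, Cks2 0.03, and Bub1b 0.20 and 0.06. By role, on the sets used, the 6 cyclin-Cdk1 genes were split, 3 above 0 and 3 below. All 3 of Aurka, Plk1 and Tpx2, all 4 passenger genes and 6 of 7 motors and microtubule binders lay below 0 on these sets. Among other sets, that of Aurkb gave 0.13, and those of Kif11 gave -0.15 and 0.36.

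None of the remaining members was called in either comparison with control. Their differences between ACD mutant and control cells on the sets used follow, apart from that of Cdca8, given further below. Bub1 had 10.24, 10.11 and 10.26 in ACD mutant cells and 10.62, 11.03, 10.78, 10.50 and 10.00 in MIB control cells, a difference of -0.39 with overlapping groups. The other Bub1 set, 1438571_at, gave -0.04. Ttk differed by -0.24, Kif11, the motor that pushes spindle poles apart, by -0.22, and Cdca3, a trigger of mitotic entry, by -0.23. Cenpa, the histone that marks centromeres, differed by -0.20, Mad2l1, the Mad2 of the checkpoint, by -0.17, Incenp, the scaffold of the passenger complex, by -0.16, and Cenpf, a kinetochore protein, by -0.14. Mki67 had 12.84, 12.78 and 12.76 in mutant cells and 12.80 to 13.07 in control cells, a difference of -0.14 with overlap. Hmmr differed by -0.27, Aurkb by -0.18, Kif23 by -0.15, Top2a by -0.09 and Cenpe by 0.08. Tpx2, the activator of Aurora A, and Nusap1, a spindle microtubule binder, both had -0.08. Nearer to 0 were Ccnf, cyclin F, at -0.04, the depolymerising kinesin Kif2c at 0.01, and Cdc20, an activator of the anaphase-promoting complex, at 0.00. On other sets past the filter Ccnf gave 0.24, Kif2c -0.37, 0.01 and 0.11, and Cdc20 -0.30 and -0.08. Those of Hmmr gave -0.26 and -0.73, and that of Top2a gave -0.43.

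**Figure D3:**
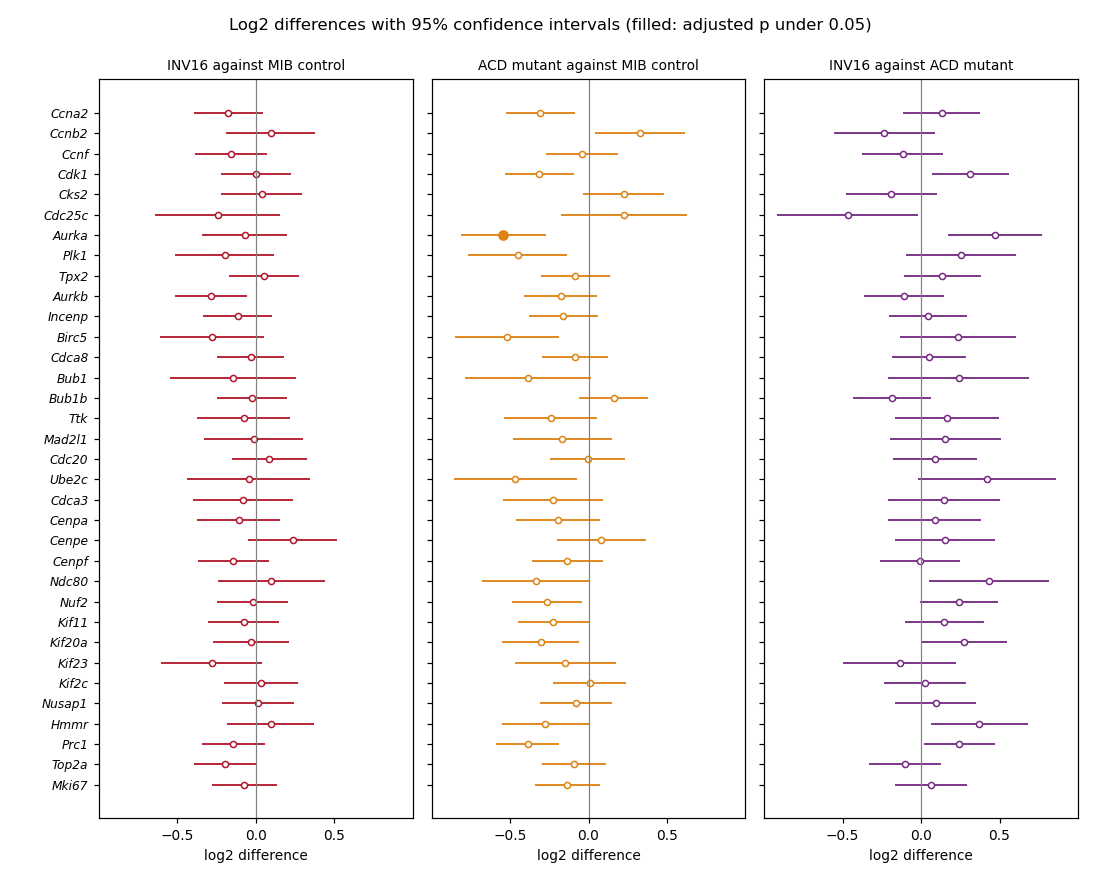
Log2 difference of each measured member (rows, ordered by role) with its 95% confidence interval, for INV16 against MIB control, ACD mutant against MIB control and INV16 against ACD mutant, over 11 arrays; filled points have an adjusted p under 0.05. Aurka at -0.54 in the middle panel is the only filled point, and most points of that panel lie left of 0.

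The interval plot makes plain how narrow the estimates are. Standard errors of the 34 members ran from 0.09 to 0.19 in both comparisons with control. On the probe sets used, the largest difference from control, that of Aurka, is a 1.46-fold change. In INV16 cells the largest on those sets is the 1.22-fold difference of Aurkb. Other sets of some genes, Cenpe and Cdca8 among them, differed more. Both comparisons use the same 5 control arrays, so their panels are not independent.

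Cdca8, which encodes borealin of the passenger complex, also differed by probe set. The set used, 1436847_s_at, gave -0.09 in ACD mutant against MIB control cells. Probe set 1428480_at had 9.22, 9.66 and 9.71 in ACD mutant cells and 10.34, 10.31, 10.48, 10.47 and 10.31 in control cells, with INV16 replicates 1 to 3 at 10.34, 10.34 and 10.32. Every mutant value lay below every one of those control and INV16 values. In the fit with each probe set as a row, its difference was -0.85 ± 0.12 (SE; adjusted p = 0.0120 by limma) from control, where 1.68% of rows were called, and INV16 differed from ACD mutant by 0.80 (adjusted p = 0.0143), where 1.27% of rows were called. The lowest mutant value was that of replicate 1, which has the largest Gapdh 3' minus 5' gap of the group, and the part of RNA quality in this result was not tested. The third set of the gene gave 0.01.

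Some markers of other cells differed between ACD mutant and MIB control cells. All ACD mutant arrays lie in spike-in set B, with MIB control replicates 6 and 7. The mast cell, basophil and eosinophil list, 9 of 13 above the filter, summed to 5638 to 6801 in ACD mutant cells, against 2380 to 5501 in MIB control cells, and 1 of the 9 was called higher, Hdc (1.56, adjusted p = 0.0150 by limma). The list was split, with 5 of the 9 differences above 0, 4 below and a median of 0.04. Of the 9, Fcer1a, Cma1, Il4 and Il13 lay between 4.27 and 5.74 outside INV16 replicate 4, around the filter of 5.10. The filter uses the mean over all 12 arrays, and in INV16 replicate 4 these genes read 13.31, 12.70, 10.09 and 5.90. All 7 megakaryocyte markers above the filter had differences above 0, with none called. Their median deviation from the control mean was 0.74 to 0.84 in ACD mutant arrays. In control arrays it was -0.49 to -0.29 in replicates 3 to 5 (set A), and 0.16 and 1.70 in replicates 6 and 7 (set B). The part of the spike-in set in these differences was not tested. The 8 measured, with no filter, summed to 4232 to 5425, against 1710 to 7583. Of 8 monocyte and macrophage markers above the filter 7 had differences above 0, with a median of 0.33 and none called. The 9 measured, with no filter, summed to 5406 to 6505, against 2845 to 7399. The part of all these markers in the members' differences was not tested.

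INV16 against ACD mutant sets the fusion against the mutant that lacks the assembly competent domain. No member was called, where 2.07% of all genes tested were called (0.31% higher and 1.76% lower). The members' median was 0.13, and that of all genes was -0.02. Differences lay above 0 in 25 of 34 members, against 45.7% of all genes, and below 0 in 9, against 54.3%. At an unadjusted p under 0.05, 6 members were counted, against 19% of all genes, of which 5 were higher, against 5.6%, and 1 lower, against 13.4%. INV16 values lay wholly above ACD mutant values in 8 members, against 9.45% of all genes, and wholly below in 3, against 19.2%. Intervals ran from -0.92 to 0.86, and 28 of 34 held 0. INV16 replicates 1 to 3 and the ACD mutant replicates lie in different spike-in sets, so a difference between those sets and one between these groups cannot be told apart without the control arrays as a bridge, and with the set as a block the members' median was 0.04. All 7 megakaryocyte markers above the filter had INV16 minus ACD mutant differences below 0 (median -1.14), with 1 called, Vwf (-2.23, adjusted p = 0.0485 by limma). The 8 measured, with no filter, summed to 1846 to 1950 in INV16 replicates 1 to 3, against 4232 to 5425 in ACD mutant cells. All 8 monocyte and macrophage markers above the filter also had differences below 0 (median -0.43), with none called. The 9 measured summed to 3001 to 4414 in INV16 replicates 1 to 3, against 5406 to 6505 in ACD mutant cells. Of the 9 mast cell, basophil and eosinophil markers 2 were called lower by limma, Cpa3 (-1.45, adjusted p = 0.0379) and Ms4a2 (-2.01, adjusted p = 0.0418), 4 had differences above 0, and the list's median was -0.05. Fcer1a, Cma1, Il4 and Il13 of this list lay around the filter on these arrays, as given above. The part of the megakaryocyte, macrophage and mast cell lists in the members' differences was not tested.

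Aurka had 10.08, 10.26 and 10.38 in INV16 cells and the ACD mutant values given above, none of which reached 10.08. The difference was 0.47 ± 0.14 (SE), with an adjusted p of 0.0920 by limma. Cdk1 also lay wholly above, with a difference of 0.31 ± 0.11 (SE; adjusted p = 0.158), and so did Prc1, at 10.72, 10.79 and 10.94, with a difference of 0.24 ± 0.10 (SE; adjusted p = 0.228). Hmmr, a microtubule-associated protein that recruits Tpx2, had 10.86, 10.64 and 11.14 in INV16 cells and 10.66, 10.46 and 10.42 in mutant cells, a difference of 0.37 ± 0.14 (SE; adjusted p = 0.186). Its groups overlapped, at INV16 replicate 2. The other Hmmr sets past the filter gave 0.14 on 1450156_a_at and 0.84 on 1450157_a_at. Ndc80 had 9.60, 9.62 and 8.95 in INV16 cells and 9.04, 8.96 and 8.85 in mutant cells, a difference of 0.44 ± 0.18 (SE; adjusted p = 0.205). INV16 replicate 3 fell among the mutant values, and without it the difference was 0.66 (adjusted p = 0.0486).

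Cdc25c ran the other way, with 8.37, 8.34 and 8.37 in INV16 cells and 8.99, 9.06 and 8.44 in ACD mutant cells. All INV16 values lay below all mutant values, and the difference was -0.47 ± 0.21 (SE; adjusted p = 0.240 by limma). In MIB control cells Cdc25c had 8.23 and 8.24 in replicates 3 and 4 and 8.83 to 8.89 in replicates 5 to 7, so the control arrays span the gap between these groups. With the spike-in set as a block the Cdc25c difference was -0.04. The other Cdc25c set, 1422252_a_at, had 7.95, 7.81 and 7.86 in INV16 cells and 7.99, 7.97 and 7.91 in ACD mutant cells. The groups overlapped on it, with a difference of -0.09. Bub1b and Ccnb2 were the other members wholly below, with differences of -0.19 and -0.23.

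**Figure D4:**
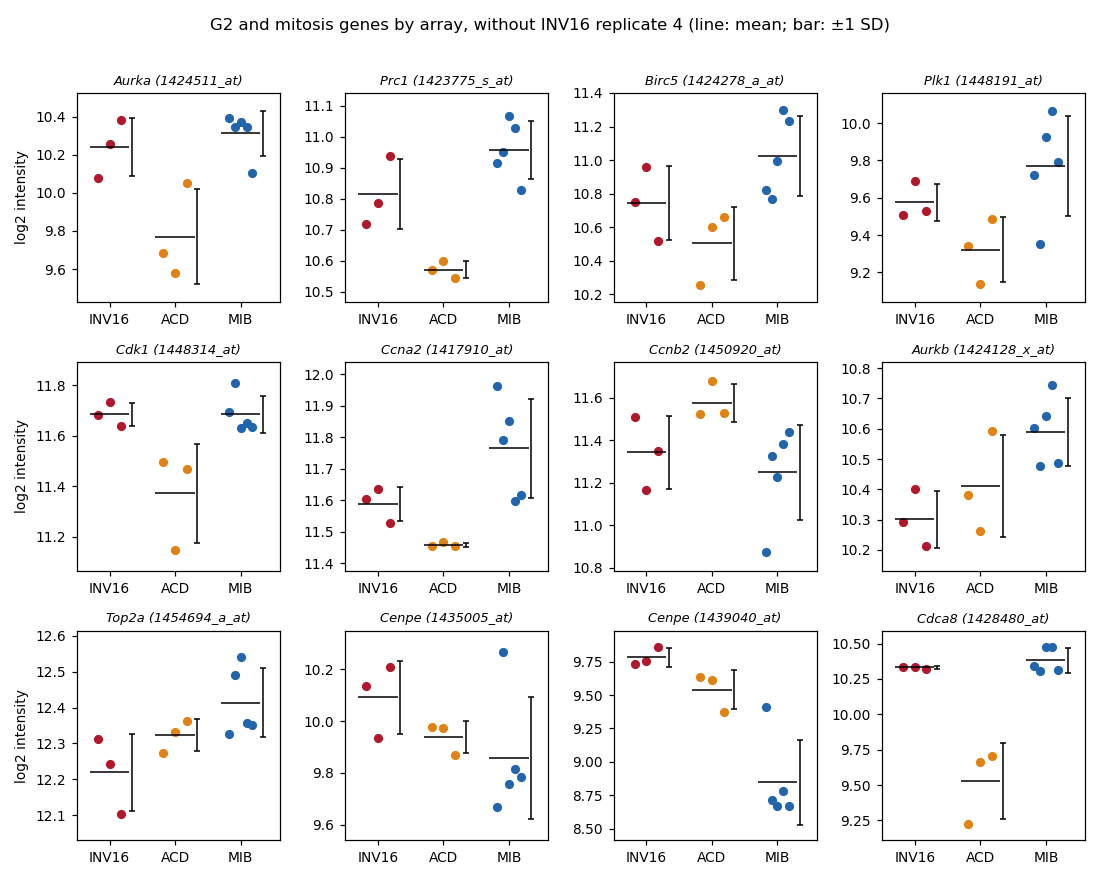
Log2 value of Aurka, Prc1, Birc5, Plk1, Cdk1, Ccna2, Ccnb2, Aurkb, Top2a, both Cenpe probe sets and Cdca8 1428480_at in each array of INV16 replicates 1 to 3, ACD mutant and MIB control cells (points), with group means (lines) and 1 SD either way (bars). For Aurka the ACD mutant points lie at 9.58 to 10.05, under all others, and for Cenpe 1439040_at the INV16 points lie at 9.73 to 9.86, above all control points.

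The plot of values by array also shows how tight some groups were: the 3 Ccna2 values in ACD mutant cells span 11.45 to 11.47, while the 5 control values span 11.60 to 11.96. Control spread was widest for Ccnb2, Plk1 and Birc5 among the genes plotted with 1 probe set.

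In INV16 replicate 4 nearly the whole group was low. Against the mean of INV16 replicates 1 to 3, 32 of 34 members were lower by at least 1 log2 unit, where 20.8% of all genes were, and 20 were lower by at least 2, where 6.94% were. No member was higher by 1 log2 unit, against 8.69% of all genes, or by 2, against 2.72%. The members' median difference was -2.15, and that of all genes was 0.00. In 33 members the value lay below those of all other 11 arrays, against 38.8% of all genes. This is 1 array, so the difference has no replicate check and was not tested, apart from outlier flags given further below.

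The checkpoint kinase Bub1 differed most, with 6.80 in INV16 replicate 4, against 10.44 ± 0.22 (SD, n = 3) in INV16 replicates 1 to 3, a 12.5-fold lower level. Kif20a had 6.20, against 9.59 ± 0.13, and Birc5 had 7.54, against 10.74 ± 0.22. Ttk, the kinase Mps1 that starts checkpoint signalling, had 6.08, against 9.20 ± 0.17. All 4 were lower by more than 3 log2 units and lay far under the lowest of the other 11 arrays, which for Bub1 was 10.00. Aurkb (7.44, against 10.30 ± 0.09) and Plk1 (6.78, against 9.58 ± 0.10) differed by -2.86 and -2.79 log2 units. Cdk1 had 9.25, against 11.69 ± 0.05, and Aurka had 7.83, against 10.24 ± 0.15.

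By role, the checkpoint genes had the lowest median, -2.57, followed by Aurka with Plk1 and Tpx2 at -2.41, the motors and microtubule binders at -2.31 and the kinetochore genes at -2.26. The passenger complex genes had a median of -2.02, the pair Top2a and Mki67 -1.82, the cyclin-Cdk1 genes -1.70, and Cdc20, Ube2c and Cdca3 -1.35. Mki67, the antigen Ki-67, had 11.53, against 12.86 ± 0.07 in INV16 replicates 1 to 3, and Top2a had 9.90, against 12.22 ± 0.11. The smallest differences were those of Incenp at -1.17, Cdca8 at -0.91 and Cks2 at 0.01. Cks2 had 12.57 in INV16 replicate 4, within the 12.33 to 12.87 of the other arrays.

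**Figure D5:**
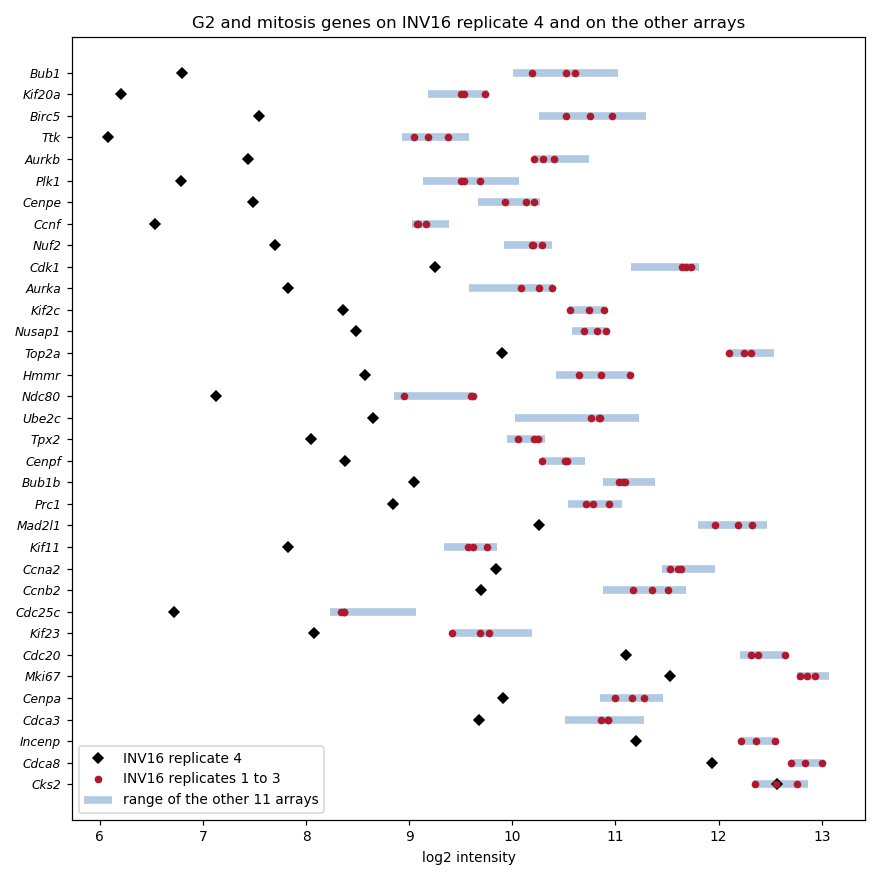
Log2 value of the 34 measured members in INV16 replicate 4 (black diamonds) and INV16 replicates 1 to 3 (red points), over the range of the other 11 arrays (blue bars), ordered by the difference between replicate 4 and the mean of replicates 1 to 3. The diamond lies left of the bar in every row but that of Cks2, where it stands at 12.57; the largest gap is at the top, for Bub1, with the diamond at 6.80.

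The plot of replicate 4 beside the other arrays shows the members as a steady series from Bub1 to Cdca8, with Cks2 alone inside the range of the other arrays. For 12 of the 22 members with another probe set past the filter, at least 1 other set lay further below INV16 replicates 1 to 3 than the set used. Cdca8 differed by -3.30 on 1428480_at and -1.84 on 1428481_s_at, Incenp by -1.94 on 1423092_at and Cdc20 by -2.18 on 1416664_at, against -1.35 on the set used. Other sets differed by less or were higher, with Incenp at -0.39 on 1423093_at and Cdca3 at 0.47 on 1448001_x_at, against -1.17 and -1.22 on the sets used. The other Cks2 set, 1417458_s_at, had 11.57 in INV16 replicate 4 and 12.24 to 12.43 in INV16 replicates 1 to 3, a difference of -0.75. Of the 34 other probe sets past the filter, 22 were lower by at least 1 log2 unit in INV16 replicate 4, and 15 of the 34 lay further below than the set used for their gene. Among promoters, the 22 members with a homology region had a median difference of -2.12 (range -3.64 to -0.91), and the 6 measured without one -2.43 (-3.20 to 0.01).

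The mast cell and progenitor marker sums of this array are given above. Its 11 measured neutrophil markers, of which 10 were above the filter, summed to 2392, against 25161 to 35393 in INV16 replicates 1 to 3. This list was split. Of the 10, 4 were lower than INV16 replicates 1 to 3 by at least 1 log2 unit, against 20.8% of all genes. Differences lay above 0 in 4 of the 10, and the median was -0.62. Mpo, Prtn3 and Ctsg had 9.90, 8.07 and 9.49, against at least 12.62 on the other 11 arrays. Camp, at 6.48, lay above the 5.51 to 6.42 of those arrays. The part of these other cells and of RNA quality in the members' low values was not tested. With this array counted among the INV16 replicates, the members' median difference in INV16 against MIB control was -0.58 in place of -0.07, with 33 of 34 below 0 and none called, and in INV16 against ACD mutant it was -0.39 in place of 0.13. The direction of the group in INV16 cells against ACD mutant cells therefore rests on leaving this array out.

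Beyond the members, 161 other genes of G2 and mitosis were listed, of which 149 were tested. In INV16 against MIB control 1 of the 149 was called, Cenpo, a kinetochore protein, lower (-0.51 ± 0.10 SE, adjusted p = 0.0217 by limma). In ACD mutant against MIB control 2 were called, both lower: Tacc3, a spindle protein that Aurora A phosphorylates (-0.75 ± 0.11 SE, adjusted p = 0.0150), and Ensa, an inhibitor of the phosphatase that opposes Cdk1 (-0.57 ± 0.11 SE, adjusted p = 0.0360). Tacc3 averaged 9.82 ± 0.17 in ACD mutant cells and 10.56 ± 0.14 in control cells (SD, n = 3 and 5). In INV16 against ACD mutant 1 was called, Cenpp, a partner of Cenpo, lower (-0.57 ± 0.11 SE, adjusted p = 0.0245). Medians of the 149 were -0.05, -0.06 and 0.01 in these comparisons, in the same order, where 1.7%, 1.7% and 2.07% of all genes were called. In INV16 replicate 4 the median of the 149 was -1.38, with 90 lower by at least 1 log2 unit, against 20.8% of all genes. Higher by as much were 2, Cdc25b (1.41) and Anapc15 (1.12), against 8.69% of all genes.

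S phase genes were set beside the members because their products copy the DNA that the members then divide. Of 44 tested, 39 had differences below 0 in INV16 against MIB control, against 56.3% of all genes, with a median of -0.12. Of the 44, 1 was called, E2f2, lower (-0.56, adjusted p = 0.0357 by limma), where 1.7% of all genes were. In ACD mutant against control the S phase median was -0.03, where the members' was -0.17, with 28 of 44 below 0, against 48.6% of all genes. Here 1 was called, Rrm1, a subunit of ribonucleotide reductase, lower (-0.46, adjusted p = 0.0379 by limma), where 1.7% of all genes were. In INV16 against ACD mutant the S phase median was -0.09, where the members' was 0.13. In this comparison 1 was called, Prim2, a subunit of primase, lower (-0.61, adjusted p = 0.0193 by limma), where 2.07% of all genes were. Against control the medians of both lists thus lay below 0, and only in INV16 against ACD mutant did they have opposite signs. That difference was not tested, and the members' median there was nearer 0 with the spike-in set as a block. In INV16 replicate 4 both lists were low, the S phase genes with a median of -1.68.

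Among 12 tested inhibitors of Cdk activity and genes of quiescence, 2 were called higher in ACD mutant against MIB control, the antiproliferative gene Btg1 (0.68, adjusted p = 0.0460 by limma) and the retinoblastoma gene Rb1 (0.48, adjusted p = 0.0481). Of all genes 0.984% were called higher in that comparison. None of the 12 was called in INV16 against control. In INV16 against ACD mutant, Rb1 (-0.55, adjusted p = 0.0415 by limma) and the Cdk inhibitor Cdkn1c (-0.95, adjusted p = 0.0397) were called lower, where 1.76% of all genes were. In INV16 replicate 4, 6 of the 12 were higher by at least 1 log2 unit, against 8.69% of all genes, and 1 was lower, against 20.8%.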

How the data were processed

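RNA from sorted cells was hybridised to 12 Affymetrix arrays after amplification of cDNA in a 2-cycle kit, per the labels' protocols. The deposited table holds log2 values for 45101 probe sets, summarised by the authors; how they corrected background, normalized and summarised is not stated in the sources. The values were used as deposited, since array medians differed by at most 0.17. Probe sets annotated to 1 symbol (34945) with a mean above the 40th percentile (5.10) were kept, and the brightest was taken for each gene. A linear model with a mean for each group was fitted in limma 3.58.1 (R 4.3.3) to the 11 arrays without INV16 replicate 4, with eBayes and Benjamini-Hochberg adjustment over 12912 genes, two-sided; it was tested on simulated data. Members and gene lists were chosen with earlier results of these data known. All members are named; values by array are given for called members or, where fewer than 6 were called, for the 6 with the smallest p, and called genes of the other lists are named. Other probe sets of Cenpe, Cdca8, Aurkb, Prc1, Cks2, Incenp, Cdc20, Cdca3, Cdc25c, Top2a, Bub1b, Kif11 and Cenpa were singled out after their values were seen. The same holds for other sets of Hmmr, Bub1, Ccnf and Kif2c. So were the marker genes Mcpt8, Il4, Il13, Kit, Gata2, Mpo, Prtn3, Ctsg and Camp. Array number limits the precision. Alternatives changed the arrays, normalization, filter, probe set, spike-in set, RNA quality covariate and replicate block. Replicate numbers of INV16 and ACD mutant did not pair the arrays (correlations of deviations -0.16, -0.18 and -0.31). Promoter sequences are RefSeq's, build GRCm38.p6.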

Additional observations from a re-analysis of the deposited data

Results flagged for a closer look

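In 24 of 34 members the value of INV16 replicate 4 stood far below the other 3 INV16 arrays, by Dixon's test on the gap to the nearest array. These were Ccna2 (9.84), Cdk1 (9.25), Ccnf (6.53) and Cdc25c (6.72) among the cyclin-Cdk1 genes, and Aurka (7.83), Plk1 (6.78) and Tpx2 (8.04) among the mitotic kinases and their activator. Among the passenger and checkpoint genes they were Aurkb (7.44), Birc5 (7.54), Bub1 (6.80), Bub1b (9.04) and Ttk (6.08). At the kinetochore they were Cenpe (7.49), Cenpf (8.38) and Nuf2 (7.70). The motors and microtubule binders were Kif11 (7.82), Kif20a (6.20), Kif2c (8.36), Nusap1 (8.48) and Prc1 (8.85). The rest were Ube2c (8.65), Cdca3 (9.68), Top2a (9.90) and Mki67 (11.53). The median deviation of the members in this array, -2.18, was set apart by the same test, with the nearest INV16 array at -0.10. INV16 replicate 4 had already been set apart, so these flags describe how far it stood and are no further evidence. Dixon's test was not run over all genes tested, of which 38.8% lay below all other 11 arrays in INV16 replicate 4.

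In MIB control cells 3 values stood apart from the other 4: Aurka in replicate 7, the lowest at 10.11 with the next at 10.35, Kif20a in replicate 7, the lowest at 9.36 with the next at 9.65, and Cenpe in replicate 4, the highest at 10.27 with the next at 9.81. Chance marks about 1 in 20 groups, and 34 genes were examined in this group. Without MIB control replicate 7 the Aurka difference of ACD mutant cells was -0.59 (adjusted p = 0.0261 by limma).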

How the results depend on the processing

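Aurka, the 1 member called in the main comparisons, stayed below 0 in ACD mutant against MIB control under every alternative run (-0.68 to -0.41). Members called under an alternative alone did not all keep their sign: Cenpe ran from -0.42 to 0.93 in INV16 against control, and Cdca8 from -0.17 to 0.80 and Ndc80 from -0.13 to 0.66 in INV16 against ACD mutant, while Cdca8 ran from -0.85 to 0.04 in ACD mutant against control. Called genes that are not members were not rerun one by one. In INV16 against MIB control, the main count of 0 members called became 1 with the mean over probe sets, 1 with the probe set of largest variance and 1 with each probe set as a row, Cenpe higher each time, and it was 0 in the other alternatives. The members' median of -0.07 moved to -0.58 with all 12 arrays and to -0.015 after quantile normalization. In ACD mutant against MIB control, the count of 1 became 0 with all 12 arrays, only the 2 groups compared, no filter, the spike-in set as a block, set B alone, the Gapdh covariate or the replicate block. It became 2 with the 60th percentile filter and with the mean over probe sets (Aurka and Prc1), and 3 with the set of largest variance (Aurka and Cdca8 lower, Cenpe higher). With each probe set as a row it was 1, but the member was Cdca8 and not Aurka. It ran from 0 to 2 without each array in turn. Over the 22 alternatives fitted by gene, Prc1 was called lower in 3 and Plk1 in 1. The median of -0.17 became -0.28 with the set of largest variance, -0.115 with the spike-in set as a block and -0.115 within set B. Without each array in turn it lay between -0.22 and -0.15, lowest without ACD mutant replicate 3. In INV16 against ACD mutant, the count of 0 became 1 with the set of largest variance, 1 with each probe set as a row, and 0 to 1 without each array in turn (Ndc80, without INV16 replicate 3). The median of 0.13 became -0.39 with all 12 arrays, 0.24 with the set of largest variance, 0.044 with the spike-in set as a block and 0.075 with the Gapdh covariate. The causes of these moves were not tested. The replicate block, fitted although the numbers do not pair the arrays, gave 0 members called in each comparison, with medians of -0.07, -0.15 and 0.13. At 2 log2 units, 20 members were low in INV16 replicate 4. Genes called among all tested, 219, 219 and 267, ran over the alternatives from 1 to 332, 0 to 589 and 0 to 841, lowest in INV16 against MIB control under the replicate block. INV16 against MIB control within set B, ACD mutant against control within set A, and INV16 against ACD mutant within either set could not be fitted, since a group was missing there or had only the array left out. With 3 to 5 arrays a group, standard errors of the members ran from 0.09 to 0.21 log2 units, which limits what could be called.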
